A study of Mus musculus with 8 samples.

Results

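Erythropoietin and related cytokines act on blood cells through receptors, JAK2 and STAT transcription factors, and 10 genes of this axis were followed in hematopoietic stem cells (HSCs) of anemic mice. They were the receptor genes Epor, Csf2rb and Il6st, the kinase gene Jak2, the transcription factor genes Stat3, Stat5a and Stat5b, and the feedback genes Socs2, Socs3 and Cish. The genes were chosen by name for their place in the pathway, with earlier results of these data known. All 10 were found among the 16729 genes of the 3 tables of expression values. All 10 also passed the filter on low values, which kept 11351 genes, and 71 other genes of the pathway were followed as lists.

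RNA was sequenced from HSCs that were sorted as lineage-, Sca-1+, c-kit+, CD150+ and CD48-/low cells from wild-type C57BL/6 mice aged 8 to 12 weeks, in 8 libraries. HSCs from the marrow of control mice, labelled as given PBS and called untreated by the authors, form the group control BM (3 libraries). The groups PHZ BM (3 libraries) and PHZ SP (2 libraries) are HSCs from the marrow and the spleen of mice given phenylhydrazine (PHZ), a compound that lyses red blood cells. PHZ was given intraperitoneally at 60 mg/kg in 2 injections, and cells were sorted on day 3 after the last. Spleen HSCs of mice without PHZ were not analysed here, so PHZ SP differs from control BM in both tissue and treatment. The labels name no animal for a library, so p-values measure only the spread between these libraries.

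When erythropoietin, interleukin-3, GM-CSF or a cytokine of the interleukin-6 family binds its receptor, JAK2 or a related kinase phosphorylates the receptor and then STAT proteins, which enter the nucleus and switch on target genes. Cish, Socs2 and Socs3 are such targets, and the proteins they encode bind the receptors or kinases and damp the signal, so that their RNA is often read as a trace of recent signalling. In the erythroid lineage the erythropoietin receptor, JAK2 and STAT5 sustain survival of progenitors, while in HSCs thrombopoietin is a main known input to JAK2 and STAT5.

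The libraries held 8222333 to 13212902 reads, and 43.3% to 48.5% of them belonged to Rn45s, a precursor of ribosomal RNA. Values are FPKM, fragments per kilobase of gene length with a scaling for depth. Differences between groups were taken after log2(FPKM + 1), so those of genes with low levels come out too small. Genes of the sort markers were present in every library for Kit (83.9 to 151 FPKM), Ly6a (85.9 to 235 FPKM) and Slamf1 (2.26 to 9.23 FPKM). In contrast, Cd48 lay at 0 to 8.19 FPKM, with its highest values in the PHZ SP libraries. In PHZ BM, replicate 3 stood apart from the other libraries of its group. In it, 133 of 11351 genes (1.17%) lay over 2-fold above both other libraries on the FPKM + 1 scale, against 25 and 29 genes in replicates 1 and 2. Of the 10 axis genes 4 were among those 133. Control replicate 1 stood apart more, with 251 genes (2.21%) over 2-fold above and 468 (4.12%) over 2-fold below both other controls, of the axis genes only Epor, which was below.

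Of 30 tests (10 genes in 3 comparisons), 1 passed an adjusted p of 0.05 in limma. Socs3 was higher in PHZ BM than in control BM, where 311 of the 11351 genes tested (2.74%) passed. None of the 10 passed between PHZ SP and control BM, where 86 genes (0.758%) did, or between PHZ SP and PHZ BM, where 111 genes (0.978%) did. Limma voom on recovered reads called 0 of the 10 in each of the 3 comparisons. At an unadjusted p under 0.05 the count was 3 of 10 in PHZ BM against control BM (Stat3, Socs3 and Cish), beside 1886 of all 11351 genes. It was 1 in PHZ SP against control BM (Socs3), beside 1793 genes, and 2 in PHZ SP against PHZ BM (Epor and Stat5a), beside 1530 genes.

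The median difference of the 10 genes was 0.15 in PHZ BM against control BM, 0.20 in PHZ SP against control BM and -0.23 in PHZ SP against PHZ BM. The medians over all genes tested were 0.011, -0.0012 and -0.017. Groups did not overlap for 4 of the 10 genes in PHZ BM against control BM (all 4 higher), beside 23.9% of all genes. In PHZ SP they did not overlap for 4 genes against control BM (2 higher, 2 lower), beside 28.9% of all genes, and for 3 against PHZ BM (1 higher, 2 lower), beside 34.9%. With 10 genes, the counts without overlap in the 3 comparisons are too small to set apart from these shares, and no test of them was made.

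**Figure D1:**
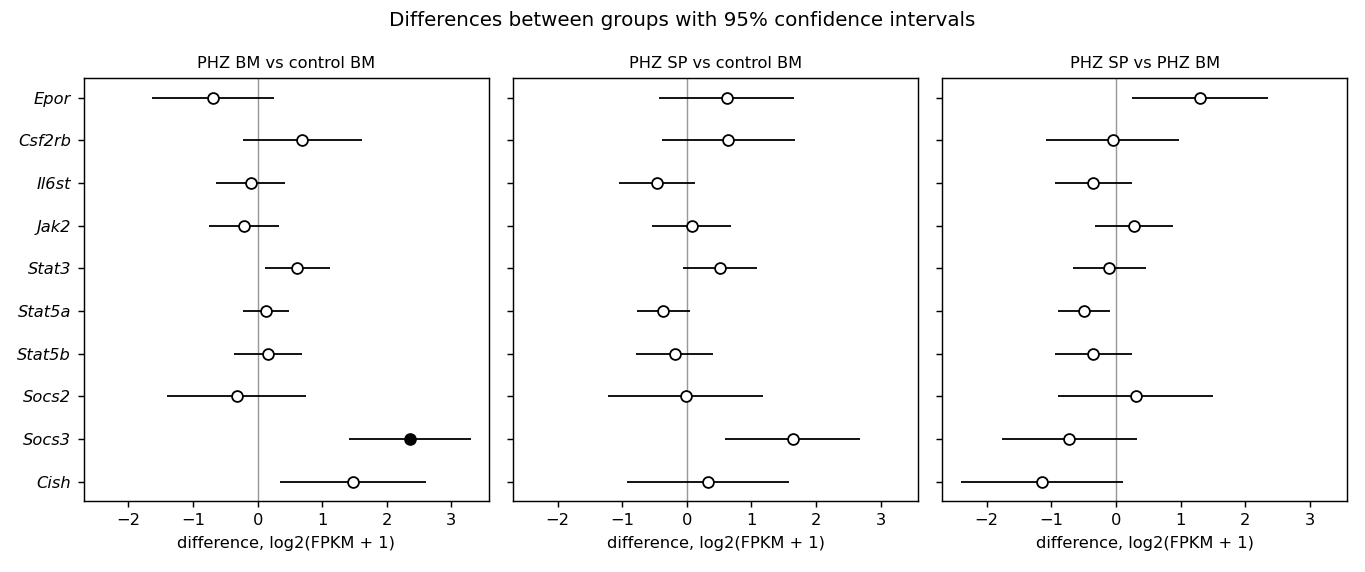
Differences of the 10 genes between groups on the log2(FPKM + 1) scale, from limma over all 8 libraries, with 95% confidence intervals as lines and filled circles where the adjusted p was below 0.05. The interval of Socs3 in PHZ BM against control BM (1.42 to 3.30) is the filled one, and the intervals of most other genes cross 0.

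Epor (chr9:21958897-21963576, minus strand, build mm10) encodes the erythropoietin receptor, through which erythroid progenitors survive and expand. Its levels were 1.91, 6.19 and 6.40 FPKM in control BM, 1.59, 4.19 and 1.76 FPKM in PHZ BM, and 11.1 and 4.61 FPKM in PHZ SP. Both spleen libraries lay above all 3 PHZ BM libraries, but the ranges of PHZ SP and control BM overlapped and the 2 spleen libraries differed from each other by more than 2-fold. The difference between the spleen and PHZ BM was 1.30 ± 0.48 (SE, with a 95% interval of 0.25 to 2.35, unadjusted p = 0.0196, adjusted p = 0.262). Between the spleen and control BM it was 0.61 ± 0.48 (adjusted p = 0.572), and PHZ BM differed from control BM by -0.69 ± 0.43 (adjusted p = 0.461). Control replicate 1 was far below the other controls, and without it these last differences were 0.17 (adjusted p = 0.880) and -1.13 (adjusted p = 0.201). The difference of the spleen from control BM was 0.062 without spleen replicate 1 and 1.17 without spleen replicate 2, and that from PHZ BM was 0.75 and 1.85. Few reads stood behind these values, 33 to 245 per library, with exact Poisson 95% limits of 22.7 to 46.3 at the low end and 215 to 278 at the high end. Such limits cover counting error only.
Of the 8 axis genes with a promoter window given, Epor and Cish each carried a single GATA motif (letters GATAA, searched on both strands), the recognition sequence of GATA1, a regulator of erythroid genes that is known to act on Epor. That of Epor is shown here with the motif in capitals, where it reads as its reverse complement.
Epor: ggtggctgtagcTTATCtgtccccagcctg
These 30 bases lie at chr9:21963613-21963642 on the minus strand (GRCm38.p6), and the motif occurred in 25.4% of all 32851 RefSeq promoter windows (250 bases before to 50 after a gene's start), so its presence is a description and no more.

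Erythroid marker genes were measured beside Epor and were higher in the spleen. Their summed level was 1056 and 1207 FPKM in PHZ SP, 195 to 355 FPKM in PHZ BM and 136 to 306 FPKM in control BM, and all 13 markers tested had a higher mean in the spleen than in either marrow group. Of these, 8 passed the threshold against control BM (among them Cldn13, Slc4a1, Hbb-bt, Hba-a1, Klf1, Tfrc and Ermap) and 4 against PHZ BM (Cldn13, Hbb-bt, Slc4a1 and Aqp1). Limma voom called 6 and 4, and of the calls named here it did not make those of Klf1 and Ermap against control BM and of Cldn13 against PHZ BM. Cldn13 and Ermap were listed at 0 in control replicate 1, Tspo2 was listed at 0 in control replicates 1 and 2, and Hba-a2 and Hbb-bs were not listed. The order within the spleen group was the opposite, since replicate 2 had the higher erythroid sum and the lower Epor level. The part of these genes in the Epor values was not tested. In bulk samples fewer cells of a type and less RNA per cell cannot be told apart.

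**Figure D2:**
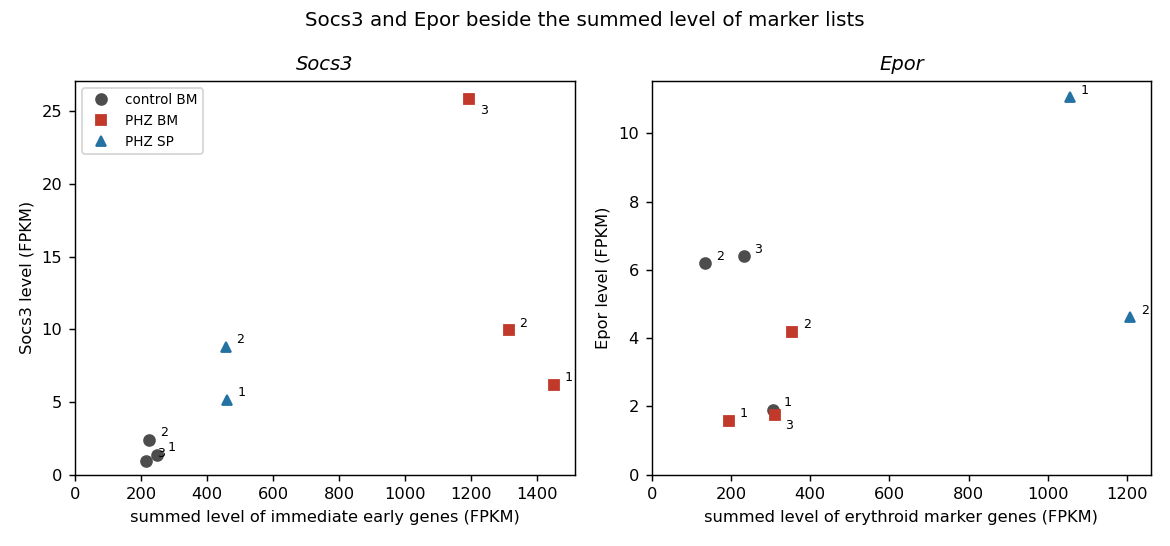
Left, the level of Socs3 against the summed level of 20 immediate early genes in each of the 8 libraries; right, the level of Epor against the summed level of 13 erythroid marker genes; all axes are in FPKM and digits give the replicate. PHZ BM replicate 3 has the highest Socs3 level (25.8 FPKM) and the lowest immediate early sum of its group (1195 FPKM), and the 2 spleen libraries have the highest erythroid sums with Epor at 11.1 and 4.61 FPKM.

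Csf2rb (chr15:78325800-78351001, plus strand) encodes the beta chain shared by the receptors for interleukin-3, interleukin-5 and GM-CSF. Its levels were 1.51, 2.17 and 1.71 FPKM in control BM, 1.80, 2.17 and 9.18 FPKM in PHZ BM, and 3.12 and 3.57 FPKM in PHZ SP. PHZ BM replicate 1 lay among the controls, replicate 2 was level with the highest control, and replicate 3 was 4.62-fold above the mean of replicates 1 and 2, while both spleen libraries lay above all 3 controls. The difference was 0.69 ± 0.42 in PHZ BM against control BM (adjusted p = 0.444) and fell to 0.10 (adjusted p = 0.908) without replicate 3. Between PHZ SP and control BM it was 0.64 ± 0.47 (adjusted p = 0.547), and between PHZ SP and PHZ BM it was -0.05 ± 0.47 (adjusted p = 0.979), which turned to 0.54 without replicate 3.
Csf2rb2 (chr15:78282507-78305721) is a near copy of Csf2rb that in mice serves interleukin-3 alone, and how reads were shared between the copies is not stated, so both values are uncertain. Csf2rb2 measured 2.18, 3.00 and 7.57 FPKM in PHZ BM, so that replicate 3 was again the highest of its group. In PHZ SP it measured 2.58 and 9.87 FPKM, and in control BM 2.56, 1.36 and 1.10 FPKM, and no comparison passed (adjusted p 0.258 to 0.803).

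Il6st (chr13:112464070-112506860, plus strand) encodes gp130, the signalling chain of receptors for the interleukin-6 family. Its levels were 2.16, 1.68 and 1.69 FPKM in control BM, 1.64, 1.70 and 1.54 FPKM in PHZ BM, and 0.889 and 1.24 FPKM in PHZ SP. Both spleen libraries were below every marrow library, but the levels were low in all groups. The difference was -0.46 ± 0.27 against control BM (adjusted p = 0.441) and -0.35 ± 0.27 against PHZ BM (adjusted p = 0.622).

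Jak2 (chr19:29251803-29313095, plus strand) encodes the kinase bound to the erythropoietin and interleukin-3 receptors. It measured 5.37, 5.36 and 3.54 FPKM in control BM, 3.06, 4.88 and 3.997 FPKM in PHZ BM, and 4.32 and 5.73 FPKM in PHZ SP. The 3 groups overlapped in every comparison. The interval of its difference ran from -0.75 to 0.34 in PHZ BM against control BM. In PHZ SP it ran from -0.53 to 0.68 against control BM and from -0.33 to 0.89 against PHZ BM, so differences of up to those sizes lie within the intervals. Without control replicate 1 its difference between the spleen and control BM went from 0.074 to 0.16.

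Stat3 (chr11:100886806-100939594, minus strand) encodes the factor that interleukin-6 family cytokines and G-CSF mainly act through. Its levels were 13.0, 6.66 and 8.90 FPKM in control BM, 13.3, 15.3 and 15.4 FPKM in PHZ BM, and 12.7 and 14.5 FPKM in PHZ SP. All 3 PHZ BM libraries lay above the controls, with control replicate 1 only just below the lowest of them. The difference was 0.62 ± 0.23 in PHZ BM against control BM (95% interval 0.11 to 1.12, unadjusted p = 0.0219, adjusted p = 0.199). It was 0.51 ± 0.26 in PHZ SP against control BM (adjusted p = 0.361) and -0.10 ± 0.26 between the PHZ groups (adjusted p = 0.909). Without control replicate 1 the first was 0.84 (adjusted p = 0.074) and without control replicate 2 it was 0.41 (adjusted p = 0.397). The second was 0.74 (adjusted p = 0.159) and 0.31 (adjusted p = 0.579) without these libraries.

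Stat5a (chr11:100859351-100885169, plus strand) and Stat5b (chr11:100780731-100859004, minus strand) are neighbouring genes for closely similar factors that carry most of the erythropoietin, thrombopoietin and interleukin-3 signal. Stat5a measured 14.3, 14.5 and 13.8 FPKM in control BM, 15.8, 15.5 and 15.6 FPKM in PHZ BM, and 11.4 and 10.3 FPKM in PHZ SP. Replicates were close to each other and none of the 3 groups overlapped, with PHZ BM highest and PHZ SP lowest. The spleen libraries differed from PHZ BM by -0.49 ± 0.18 (95% interval -0.90 to -0.09, unadjusted p = 0.0215, adjusted p = 0.270) and from control BM by -0.36 ± 0.18 (adjusted p = 0.367). The difference in PHZ BM against control BM was 0.13 ± 0.17 (adjusted p = 0.751).
Stat5b measured 9.05, 7.11 and 8.94 FPKM in control BM, 10.6, 11.4 and 6.95 FPKM in PHZ BM, and 8.81 and 5.82 FPKM in PHZ SP. All 3 groups overlapped, PHZ BM through replicate 3 alone, and no difference passed (adjusted p 0.620 to 0.792). The difference in PHZ BM against control BM was 0.16 and became 0.36 (adjusted p = 0.549) without replicate 3, and that in PHZ SP against PHZ BM was -0.35 and became -0.55 (adjusted p = 0.424). The ratio of Stat5a to Stat5b ran from 1.29 to 2.25 over the 8 libraries, with the highest value in PHZ BM replicate 3. The 2 STAT5 genes are alike in sequence. In GENCODE, Stat3 on the other strand overlaps the span of Stat5a, although the RefSeq spans of Stat5a and Stat3 given here do not overlap. The rule by which shared reads were divided is not stated, which leaves these values uncertain.

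Among the 10 genes, the feedback genes Socs3 and Cish had the largest differences in PHZ BM against control BM, although without PHZ BM replicate 3 that of Cish was smaller in size than that of Socs2. Socs3 (chr11:117966079-117970336, minus strand) encodes an inhibitor of gp130 and G-CSF receptor signalling and is switched on by STAT3 and STAT5. It measured 1.37, 2.39 and 0.948 FPKM in control BM, 6.19, 9.92 and 25.8 FPKM in PHZ BM, and 5.17 and 8.81 FPKM in PHZ SP. Every library of both PHZ groups lay above every control, and the 2 PHZ groups overlapped. It rose by 2.36 ± 0.43 on the log2 scale in PHZ BM against control BM (95% interval 1.42 to 3.30, adjusted p = 0.0138, 3 of 3 libraries above all controls). In the spleen the difference from control BM was 1.64 ± 0.48 (95% interval 0.59 to 2.69, unadjusted p = 0.00551, adjusted p = 0.134). Between the PHZ groups it was -0.72 ± 0.48 (adjusted p = 0.555) and -0.19 (adjusted p = 0.889) without PHZ BM replicate 3.
The call in marrow held in 12 of 16 alternative settings, over which the adjusted p ran from 0.0114 to 0.0704. It held without PHZ BM replicate 3 (1.82, adjusted p = 0.0247). It was lost without control replicate 1 (2.32, adjusted p = 0.0506) or control replicate 3 (2.18, adjusted p = 0.0573), without a filter on low values (2.36, adjusted p = 0.0515) and with limma voom on recovered reads (3.13, adjusted p = 0.0704). The control values rest on 31 to 55 reads per library, and those of PHZ BM on 165 to 849.

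Immediate early genes, which cells switch on within minutes of a stimulus or of handling, moved in the same direction as Socs3 in marrow. Of 17 tested, 13 passed as higher in PHZ BM than in control BM (Fos, Zfp36, Junb, Jun, Ier2, Dusp1, Fosb and Dusp2 by the smallest p-values), and 5 passed in PHZ SP (Jun, Zfp36, Junb, Klf6 and Fos). Between the PHZ groups 9 were lower in the spleen (Fos, Fosb, Junb, Ier2, Zfp36, Egr1, Jund and Ier3 by the smallest p-values). Limma voom called 13, 5 and 9, without Fos in PHZ SP against control BM and without Jund between the PHZ groups. Their summed level was 215 to 248 FPKM in control BM, 1195 to 1452 FPKM in PHZ BM and 456 to 460 FPKM in PHZ SP. Egr2 and Atf3 were listed at 0 in all 3 control libraries. Within PHZ BM the order was the opposite of that of Socs3, since replicate 3 had the lowest sum and the highest Socs3 level. The part of these genes in the Socs3 values was not tested.

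Cish (chr9:107296659-107302784, plus strand) encodes a feedback inhibitor that STAT5 switches on within a short time of erythropoietin, interleukin-3 or thrombopoietin. It measured 14.9, 9.44 and 8.99 FPKM in control BM, 18.1, 19.4 and 90.6 FPKM in PHZ BM, and 9.59 and 19.9 FPKM in PHZ SP. All 3 PHZ BM libraries lay above the controls, and replicate 3 was 4.84-fold above the mean of the other 2. Spleen replicate 1 lay among the controls, and spleen replicate 2 just above PHZ BM replicates 1 and 2. The difference was 1.48 ± 0.51 in PHZ BM against control BM (95% interval 0.35 to 2.60, unadjusted p = 0.0148, adjusted p = 0.165) and 0.74 (adjusted p = 0.303) without replicate 3. In PHZ SP it was 0.33 ± 0.57 against control BM (adjusted p = 0.825; 0.54 without control replicate 1) and -1.15 ± 0.57 against PHZ BM (adjusted p = 0.418), the second going to -0.41 (adjusted p = 0.675) without replicate 3. Replicate 3 held 7494 reads of Cish and replicates 1 and 2 held 1215 and 1164. The antisense gene Gm17041 and the pseudogene Gm17040 overlap Cish, and whether reads were assigned by strand is not stated.

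Socs2 (chr10:95383903-95417321, minus strand) is a STAT5 target that restrains growth hormone and other cytokine receptors. Its levels were 4.10, 6.95 and 3.99 FPKM in control BM, 2.04, 1.77 and 11.3 FPKM in PHZ BM, and 3.69 and 6.16 FPKM in PHZ SP. PHZ BM replicates 1 and 2 were below every control library, and replicate 3 was above every other library and 5.93-fold above the mean of PHZ BM replicates 1 and 2. The difference of -0.32 ± 0.49 in PHZ BM against control BM (adjusted p = 0.799) became -1.02 (adjusted p = 0.150) without replicate 3. In the spleen against PHZ BM it was 0.30 ± 0.55 (adjusted p = 0.864) and 0.998 (adjusted p = 0.247) without that library, and against control BM it was -0.02 ± 0.55 (adjusted p = 0.993).

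**Figure D3:**
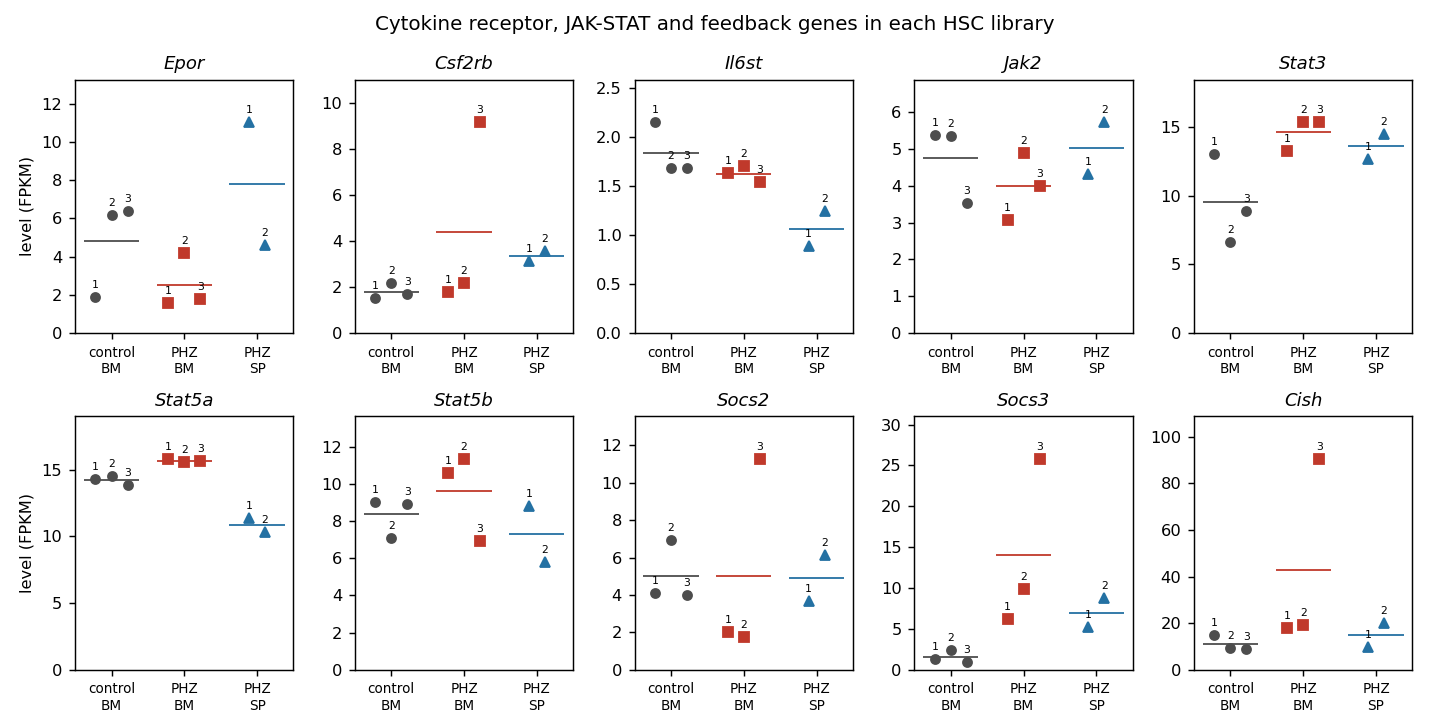
Level of each of the 10 genes in FPKM (axes start at 0 and differ between panels) in control BM, PHZ BM and PHZ SP, with a point per library, its replicate number and a line at the group mean. Replicate 3 of PHZ BM lies far above replicates 1 and 2 for Csf2rb, Socs2, Socs3 and Cish, and Socs3 is above every control in all 5 libraries of PHZ-treated mice.

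STAT5 binds the sequence TTCNNNGAA, which reads the same on both strands. RefSeq promoter windows were given for 8 of the 10 genes (10 windows), and the motif was found in those of Cish and Socs3, beside 8.30% of all 32851 windows. Both genes had their highest level in PHZ BM replicate 3, but so did Csf2rb and Socs2, the genes for which no window was given. The stretches are printed to show where the motif lies, in capitals.
Cish: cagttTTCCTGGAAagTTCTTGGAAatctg
Socs3: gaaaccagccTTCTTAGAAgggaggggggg
The Cish stretch lies at chr9:107296654-107296683 on the plus strand (GRCm38.p6) and holds a pair of motifs. The first begins at the annotated start and the second 11 bases further on, and 0.457% of all windows held 2 or more. The Socs3 stretch lies at chr11:117969501-117969530 on the minus strand, with its motif beginning 154 bases before the transcript start of the window, which lies within the wider RefSeq span of the gene given above. A match of letters is a description of the window and does not show binding in these cells.

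PHZ BM replicate 3 was therefore the library in which the feedback genes and Csf2rb were highest. All 3 feedback genes and 1 of 3 receptors were over 2-fold above both other libraries of the group on the FPKM + 1 scale. Jak2, Stat3 and Stat5a differed from the mean of replicates 1 and 2 by 0.03, 0.10 and -0.01 on the log2 scale. Stat5b and Epor differed by -0.59 and -0.41. Among the other genes of the pathway the same 2-fold rule picked Csf2rb2 (1 of 21 receptors tested), Socs1 (1 of 17 negative regulators) and Pim2, Osm, Id1 and Cdkn1a (4 of 16 STAT5 targets), and no kinase (of 3) or other STAT gene (of 4). These genes were named after their values were seen, and no test was made of them, since replicates of a group were compared with each other.
Osm, an interleukin-6 family cytokine that STAT5 switches on, measured 1.90, 2.30 and 7.38 FPKM in PHZ BM replicates 1, 2 and 3. The inhibitor gene Socs1 measured 2.44, 3.86 and 9.64 FPKM, and the cell cycle inhibitor gene Cdkn1a measured 0.775, 0.825 and 10.8 FPKM. The highest control values were 5.24 FPKM for Osm, 5.19 FPKM for Socs1 and 2.12 FPKM for Cdkn1a, so replicate 3 lay above all controls for these 3 genes. The Id1 gene, which encodes an inhibitor of differentiation factors, measured 1.40, 0 and 9.30 FPKM and varied from 1.08 to 5.66 FPKM among the controls.

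Neutrophil genes were also higher in this library. Of 8 tested, 3 lay over 2-fold above both other libraries (S100a8, S100a9 and Ngp), and the summed level of the list was 1059 FPKM against 507 and 523 FPKM in replicates 1 and 2. Mpo and Elane were highest in replicate 2 instead (12.1 and 18.7 FPKM), with 0.559 and 1.95 FPKM in replicate 1 and 0.295 and 2.68 FPKM in replicate 3. In PHZ SP the neutrophil sum was higher still, at 1415 and 1798 FPKM, with Cish at 9.59 and 19.9 FPKM and Socs2 at 3.69 and 6.16 FPKM. Proliferation genes had 2 of 15 over 2-fold above both other libraries in replicate 3 (Ccna2 and Mcm2), with a sum of 198 FPKM against 98.0 and 115 FPKM, and erythroid genes had 1 of 13 (Car1). Macrophage and dendritic, B cell, and NK and T cell markers had no gene tested that passed this rule. The part of neutrophil and proliferation genes in the feedback gene values of replicate 3 was not tested.

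**Figure D4:**
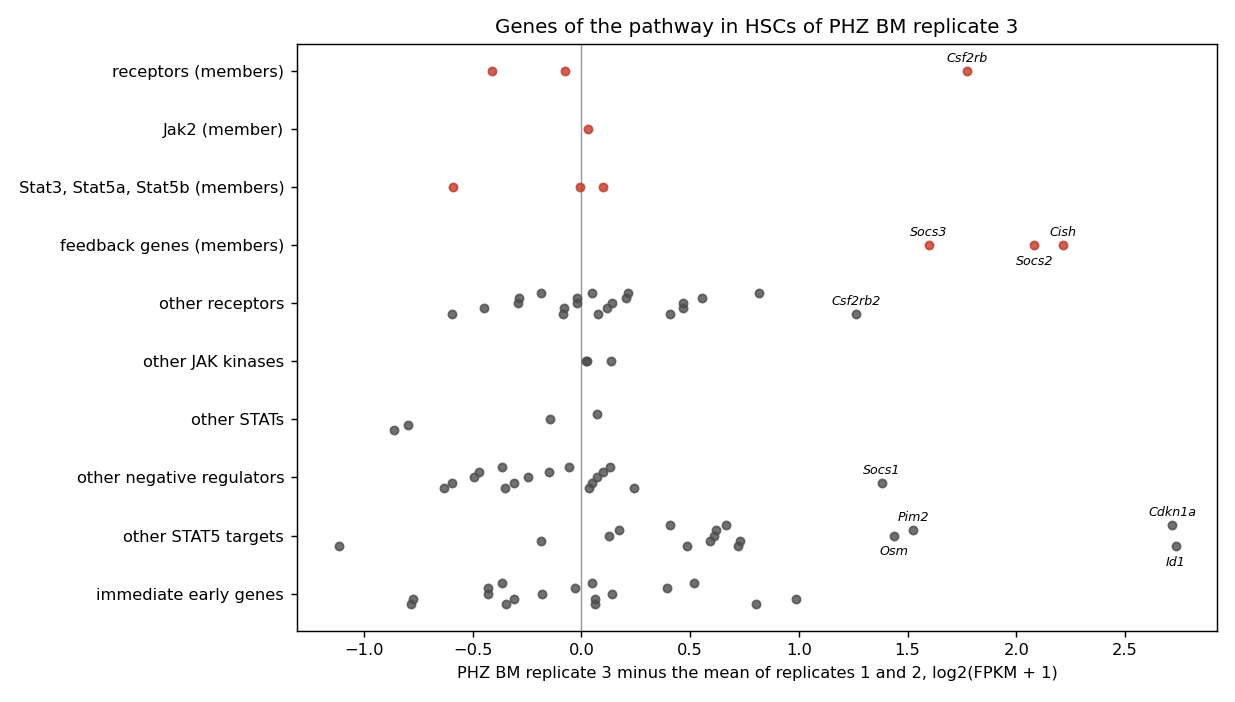
PHZ BM replicate 3 minus the mean of replicates 1 and 2 on the log2(FPKM + 1) scale, with a point per gene tested, in rows by list; red points are the 10 genes of the axis and named points lay over 2-fold above both other libraries. The 3 feedback genes lie between 1.60 and 2.22, the kinase and STAT genes between -0.59 and 0.10, and immediate early genes on both sides of 0.

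The other genes of the pathway, 71 in 5 lists, had 61 members tested. The lists were drawn up with earlier results of these data known. In PHZ BM against control BM 4 of 61 (6.56%) were higher and 0 lower, with a median difference of 0.06, beside 2.74% of all genes called. In PHZ SP against control BM 2 (3.28%) were higher and 0 lower, with a median of 0.03, beside 0.758% of all genes. At an unadjusted p under 0.05 there were 17 and 14 of 61, beside 1886 and 1793 of all 11351 genes. Limma voom called Ptpn6 and Pim1 higher and Ccnd2 lower in PHZ BM against control BM. In PHZ SP against control BM it called Il2rg alone. Between the PHZ groups limma called 0 of 61 (median 0.01), as did limma voom, with 13 of 61 and 1530 of all genes at an unadjusted p under 0.05. By list, of 21 receptors tested limma on FPKM called 1 in PHZ BM and 2 in PHZ SP against control BM. Of 17 negative regulators 1 was called in PHZ BM, and of 16 STAT5 targets 2, while the 3 kinases and 4 STAT genes had no call in the 3 comparisons.

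The STAT5 targets past the threshold were Pim1 and Pim2, kinases that favour survival of blood cells. Pim1 measured 7.67, 8.95 and 10.2 FPKM in control BM, 17.1, 18.7 and 30.1 FPKM in PHZ BM, and 7.02 and 11.6 FPKM in PHZ SP, so that PHZ BM lay above all other libraries. It rose by 1.18 ± 0.26 in PHZ BM against control BM (adjusted p = 0.0338), and without replicate 3 the difference was 0.94 (adjusted p = 0.0959). Pim2 measured 8.41, 6.12 and 8.13 FPKM in control BM, 16.4, 25.7 and 61.1 FPKM in PHZ BM, and 8.54 and 19.6 FPKM in PHZ SP. It rose by 1.85 ± 0.41 (adjusted p = 0.0380), and without replicate 3 the difference was 1.35 (adjusted p = 0.0762). The calls of Pim1 and Pim2 held in 9 and 8 of 17 alternative settings (adjusted p up to 0.0979 and 0.110). Both were also lost without any 1 of the 3 control libraries or PHZ BM replicate 2, and that of Pim1 without PHZ BM replicate 1. Neither was made with no filter on low values or with no trend or robust options. That of Pim2 was not made with limma voom or a pseudocount of 0.1 FPKM.

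Ptpn6, the phosphatase SHP-1 that damps erythropoietin and interleukin-3 receptor signals, was the negative regulator past the threshold. It measured 66.5, 71.3 and 66.9 FPKM in control BM, 118, 121 and 93.3 FPKM in PHZ BM, and 103 and 102 FPKM in PHZ SP, and every library of PHZ-treated mice lay above the controls. It rose by 0.68 ± 0.14 in PHZ BM (adjusted p = 0.0223), and the difference in PHZ SP was 0.58 ± 0.15 (adjusted p = 0.0988). The call in marrow held in 11 of 17 settings, and not with no trend or robust options. It was lost without any 1 control library or without PHZ BM replicate 1 or 2 (adjusted p up to 0.146), but it held without PHZ BM replicate 3 (0.80, adjusted p = 0.00683).

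Il10ra, the ligand-binding chain of the interleukin-10 receptor, and Il2rg, the gamma chain shared by interleukin-2 family receptors, were the receptor genes past the threshold. Il10ra measured 0, 0.888 and 1.52 FPKM in control BM, 3.99, 5.74 and 9.23 FPKM in PHZ BM, and 6.47 and 6.18 FPKM in PHZ SP. It rose by 2.06 ± 0.36 in PHZ BM (adjusted p = 0.0120) and by 2.12 ± 0.41 in PHZ SP (adjusted p = 0.0466). Its controls were low, and its call held in 13 of 16 settings in PHZ BM and in 5 of 16 in PHZ SP (adjusted p up to 0.0852 and 0.227). In marrow it was lost with limma voom, with a pseudocount of 0.1 FPKM and without PHZ BM replicate 2. The call in PHZ SP was not made with limma voom, that pseudocount, no filter on low values, only the 2 groups compared, or no trend or robust options. In the spleen it was lost without either spleen library, without control replicates 1 or 2 and without marrow replicates 1 or 2 of PHZ BM. Il2rg measured 24.6, 31.2 and 36.1 FPKM in control BM, 37.6, 38.2 and 43.8 FPKM in PHZ BM, and 79.7 and 62.4 FPKM in PHZ SP, with no overlap of the 3 groups. It rose by 1.19 ± 0.20 in PHZ SP against control BM (adjusted p = 0.0240), a call that held in 10 of 17 settings. The call was not made with no filter on low values, only the 2 groups compared, or no trend or robust options. It was lost without either spleen library, control replicate 2 or PHZ BM replicate 2 (adjusted p up to 0.211).

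Markers of other cell types were measured beside these genes. NK and T cell genes had 2 of 11 listed genes tested, with Klrb1c higher in the spleen than in both marrow groups, while the difference of Nkg7 was -0.26 against control BM and -0.36 against PHZ BM, neither past the threshold. Macrophage and dendritic genes had 5 of 10 tested, with Cd74 higher in the spleen than in PHZ BM. Of the other 4, which did not pass, C1qb and C1qc had differences of -1.35 and -0.10 there, and those of Cd68 and C1qa were above 0. Neutrophil genes had S100a8 higher in the spleen than in both marrow groups, and Prtn3 higher in PHZ BM than in control BM. In control BM, PHZ BM and PHZ SP the NK and T cell genes summed to 20.6 to 62.0, 31.7 to 50.5 and 45.1 to 55.4 FPKM. Macrophage and dendritic genes summed to 92.0 to 105, 72.6 to 82.9 and 164 to 191 FPKM, and neutrophil genes to 430 to 739, 507 to 1059 and 1415 to 1798 FPKM. B cell genes (3 tested, 26.9 to 54.0 FPKM in sum over all libraries) and the 8 HSC and sort genes had no call in limma, while limma voom called Procr of the HSC genes higher in PHZ SP than in control BM. Among megakaryocyte genes, Ppbp and Pf4 were lower in PHZ BM than in control BM in limma but were not called by limma voom. Of 15 proliferation genes, 10 were lower in PHZ BM than in control BM (Top2a, Rrm2, Mki67, Ccnb2, Ccna2, Birc5, Plk1 and Cdk1 by the smallest p-values), and 4 were higher in the spleen than in PHZ BM (Rrm2, Ccna2, Plk1 and Top2a, of which limma voom did not call Plk1). The part of these cell types in the values of the axis genes was not tested.

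FPKM divides the reads of a gene by a length, and levels of the 10 genes are set beside each other here as a description only. The lengths used ran from 1989 bases for Epor to 11099 for Il6st. That of Cish (6419 bases) was longer than its RefSeq span, so the lengths need not be those of the RNA. The order of genes below depends on these lengths. In control BM the mean level was highest for Stat5a at 14.2 ± 0.352 FPKM (SD, n = 3), followed by Cish at 11.1 ± 3.29, Stat3 at 9.53 ± 3.23 and Stat5b at 8.36 ± 1.08. Lower means were those of Socs2 (5.01 ± 1.68), Epor (4.83 ± 2.53), Jak2 (4.76 ± 1.05), Il6st (1.84 ± 0.272), Csf2rb (1.79 ± 0.337) and Socs3 (1.57 ± 0.743). The ranges of neighbours in this order overlapped, except that every Stat5b value was above every Socs2 value and every Jak2 value above every Il6st value. Genes further apart could overlap too, as the highest Socs2 value (6.95 FPKM) was above the lowest of Stat3 (6.66 FPKM). In PHZ BM the mean of Cish was 42.7 ± 41.5 FPKM and that of Socs3 14.0 ± 10.4, and in PHZ SP they were 14.7 ± 7.27 (n = 2) and 6.99 ± 2.57.

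Likeness across the 8 libraries was described by Pearson's r of log2(FPKM + 1) over the genes tested, with libraries sharing group and treatment. Among the genes most like Cish were Rpl8 (r = 0.97) and Xbp1 (0.96). The 3 genes most like Socs3 were Cyb561d2 (0.99), Gimap5 (0.96) and Fosl2 (0.96). Those most like Socs2 were Ndufa10 (0.98), Mfsd14a (0.96) and Surf4 (0.95), and those most like Epor were Ift81 (0.97), G3bp2 (0.94) and Naip6 (0.93). Xbp1, a factor of the secretory pathway, measured 38.3, 36.7 and 136 FPKM in PHZ BM, so replicate 3 was far above the others for it too. Its r with Cish was not computed without replicate 3. Fosl2, an AP-1 subunit, measured 0.315, 0.665 and 0.593 FPKM in control BM, 2.81, 3.54 and 7.95 FPKM in PHZ BM, and 1.40 and 1.99 FPKM in PHZ SP, the same order of groups as Socs3. Among the 10 genes, Cish had r = 0.83 with both Csf2rb and Socs3 and 0.47 with Socs2, all 8 points again including replicate 3, and Socs2 had r = -0.87 with Stat5b.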

How the data were processed

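The genes followed here and the gene lists were chosen with earlier results of these data known. Samples were grouped by their titles. The marrow tables' columns carry the letters WBM, and were taken as sorted HSCs as titles and labels say.

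RNA was amplified by SMART-Seq2 and made into libraries with Nextera XT. The authors mapped reads to mm10 with STAR and tested them with DESeq2, and they deposited FPKM values per group. The counting tool, annotation and strand handling are not given in the sources used here. Deposited tables of the authors' own comparisons (fold changes and p-values) were not used. Without molecular identifiers, PCR copies are not separate molecules.

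FPKM of a gene rose in steps of a single read, from which reads were worked back, and all 110442 values above 0, over 16729 genes, came out as whole reads within 0.01. The control table had been scaled with the spleen libraries and the PHZ tables with each other, so median-of-ratios factors were computed anew across the 8 libraries, and the shift in any library was at most 1.13%. Between 11450 and 12304 genes had 10 or more reads in a library.

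Genes listed in all 3 tables (15142) with at least 1 FPKM in at least 2 libraries were tested with limma 3.58.1 (R 4.3.3; trend and robust options) on log2(FPKM + 1), with group as the factor, all 8 libraries in a single fit, two-sided, and Benjamini-Hochberg adjustment over all 11351 genes at 0.05. The procedure was tested on simulated data. Named genes were the 10 genes, every gene of another list past the threshold (up to 8 per list and comparison), the sort genes, Csf2rb2, and for Epor, Socs2, Socs3 and Cish the 3 genes with the highest r. Some items that these rules name are not reported here. Alternatives were limma voom on recovered reads, a pseudocount of 0.1, other filters, other scalings, only the 2 groups compared, no trend or robust options, a replicate block, and each library left out. For other pathway genes these were run after the data were seen. Promoters and positions came from RefSeq (GRCm38.p6), overlaps from GENCODE.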

Additional observations from a re-analysis of the deposited data

How the results depend on the processing

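Of 504 differences of the 10 genes computed under alternatives, 483 kept their direction and their side of the threshold, 4 lost the call (Socs3, given with its values beside the result) and 17 changed sign, all of genes that passed in no setting. The count of the 10 genes called in PHZ BM against control BM was 1, and it was 0 with limma voom on recovered reads, with no filter on low values, with at least 1 FPKM in every library (where Socs3 and Il6st were not tested, so they have no value), and ranged from 0 to 1 when each library was left out; it stayed at 0 in the other comparisons in all settings. Differences turned sign as follows. In PHZ SP against control BM, Socs2 gave 0.0001 with voom and Jak2 and Socs2 gave -0.0026 and 0.27 with a replicate block, and in PHZ SP against PHZ BM, Csf2rb gave 0.005 with a pseudocount of 0.1 and 0.24 with the replicate block. Leaving out each library gave, in PHZ SP against control BM, -0.16 to 0.82 for Cish, -0.10 to 0.24 for Jak2, -0.32 to 0.29 for Socs2 and -0.45 to 0.0745 for Stat5b. It gave -0.39 to 0.54 for Csf2rb and -0.0768 to 0.998 for Socs2 between the PHZ groups, and -1.02 to 0.0573 for Socs2 in PHZ BM against control BM. The causes were not tested.

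Counts over all genes moved by over 1.5 times in some settings. Against 86 genes called in PHZ SP against control BM, there were 39 with a pseudocount of 0.1, 46 with no filter, 43 with only the 2 groups compared and 14 to 83 when each library was left out. Against 111 between the PHZ groups, there were 65 with voom, 62 with no filter, 62 without trend and robust options and 5 to 148 when each library was left out. Against 311 in PHZ BM against control BM, there were 205 with no filter, 204 without trend and robust options and 114 to 306 when each library was left out. Same-numbered libraries deviated together with r of -0.008 to 0.06, so the numbers were not taken as pairs. The replicate block gave 2.36 for Socs3 in PHZ BM against control BM (adjusted p = 0.0138), changed no call of the 10 genes and gave 73, 112 and 293 genes called in the 3 comparisons. With library totals in place of the factors, the STAT5 target Ccnd1 was also called lower in PHZ BM against control BM, and with voom Ccnd2 was called lower and Pim2 and Il10ra were not called. Groups had at most 3 libraries, and Epor, Socs2 and Socs3 rested on under 100 reads in some libraries, which limits their precision.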
